A study of Mus musculus with 60 samples.

Results

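Fibroblast nuclear transfer (NTM) 4-cell embryos were set against in vivo fertilised embryos of the same stage across the autosomal genes. The comparison used the 3 NTM and 3 in vivo 4-cell libraries, 6 of the 60 libraries of the series, chosen by their labels, and 25848 autosomal genes of the 27238 genes in the expression table. In vivo embryos came from superovulated C57BL/6 females mated with DBA2 males, and no culture of them was described. NTM embryos were made by injecting the nucleus of a mouse embryonic fibroblast (MEF) from a BDF1 fetus, held in low serum beforehand, into an enucleated metaphase II oocyte of an 8- to 10-week-old BDF1 female. The reconstructed oocytes were activated with strontium chloride in the presence of cytochalasin B and of Scriptaid, a histone deacetylase inhibitor, and were cultured in G1 medium up to the 4-cell stage. BDF1 is the F1 hybrid of C57BL/6 and DBA/2, so both groups had that background, and no allele was deleted or added in either. Each library was made from 1 whole embryo, and the embryos sequenced had been picked on morphology. Collection took place over at least 3 experiments, but which embryo came from which was not given, so the p-values measure the spread between these single embryos. Nuclear transfer, activation, Scriptaid and culture differed together between the groups and cannot be told apart. The question addressed was which transcripts set an embryo with a reprogrammed fibroblast nucleus apart from a fertilised one at this stage.

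In the mouse, the genome of the embryo is first transcribed weakly in the zygote and then strongly in the late 2-cell embryo, while maternal messages stored in the oocyte are destroyed. By the 4-cell stage an embryo is expected to live largely on its own transcripts, with genes for translation, RNA processing and energy supply among those switched on early. In a nuclear transfer embryo the same programme has to start from a fibroblast nucleus that carried a different set of active genes.

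The in vivo libraries had 13148899 to 16323451 reads on genes and the NTM libraries 9771743 to 18436509, and on nuclear genes alone 11982141 to 15395838 and 6275794 to 12971743, so the depth for the genes compared was lower in 2 of the 3 NTM libraries than in any in vivo library. Levels are given as RPKM, the read count normalised to gene length and library size, and 3 reads on a transcript of 2000 nt correspond to 0.0814 to 0.154 RPKM in these 6 libraries. The groups differed in library make-up. Mitochondrial genes took 35.3% ± 5.41 (SD, n = 3) of the reads in NTM and 7.14% ± 1.61 in in vivo libraries, and 7212 ± 987 against 10275 ± 305 autosomal genes reached 0.5 RPKM (two-sided exact permutation test, p = 0.1 for each, the smallest value that 3 against 3 allows). Mitochondrial shares were 7.32 to 12.7% in in vivo 2-cell and 9.86 to 22.9% in NTM 2-cell libraries, 32.1 to 45.0% in in vivo 8-cell libraries and 31.6 to 34.7% in 4-cell embryos made from cumulus cell nuclei (NTC). The in vivo 4-cell libraries thus overlapped the in vivo 2-cell ones in this share, and the NTM 4-cell libraries overlapped the in vivo 8-cell and NTC 4-cell ones. Across the 10700 autosomal genes tested, log2 values of NTM 4-cell libraries correlated with those of in vivo 8-cell libraries at r = 0.695 to 0.782 and with those of in vivo 4-cell libraries at r = 0.586 to 0.674 (across genes, which are not replicates). The part of library make-up in the results below was not tested. In libraries from whole embryos, fewer living cells and less RNA per cell cannot be told apart.

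The labels were checked against cell type markers. MEF libraries held 17359 to 21577 RPKM summed over 37 fibroblast markers, while NTM 4-cell libraries held 3.31 to 34.6 and in vivo 4-cell libraries 21.9 to 33.8. Thy1 and Pdgfrb were listed at 0 in all 6 libraries, and Dcn reached 19.4, 0 and 7.34 RPKM in the NTM libraries. Of 6 fibroblast markers tested, Loxl1 was lower in NTM (-4.02), and of 4 cumulus cell markers, Gja1, a gap junction protein also made by embryos, was lower (-1.70). Summed over 8 oocyte markers, levels were 52.5 to 406 RPKM in NTM and 55.6 to 76.6 RPKM in in vivo libraries, and only Zp2, a zona pellucida protein, passed the test, with 3.87, 1.16 and 1.48 RPKM in the in vivo libraries and 14.3, 56.01 and 28.9 RPKM in the NTM libraries. Pou5f1, the core pluripotency factor, was low in both groups, with 1.79, 3.28 and 3.62 RPKM in the in vivo libraries and 2.48, 1.82 and 1.88 RPKM in the NTM libraries, and Sox2 had 0.148, 0.555 and 0 RPKM in the in vivo libraries and was listed at 0 in the NTM libraries.

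Of the 10700 autosomal genes tested, 352 (3.29%) were higher and 1907 (17.8%) lower in NTM embryos (limma on log2(RPKM + 1), adjusted p under 0.05 and a log2 difference of at least 1). All 3 NTM values lay below all in vivo values for 3550 genes (33.2%) and above them for 859 (8.03%). The median log2 difference, NTM minus in vivo, was -2.66 for the lower genes, and 720 of them differed by at least 3. The higher genes had a median of 2.27, and 61 differed by at least 3. These sizes are measured from 0, while the median of all tested genes was -0.69, so which group changed more depends on the scaling. Of the lower genes, 220 were listed at 0 in all 3 NTM libraries, whereas 2 of the higher genes were listed at 0 in all in vivo libraries. The NTM embryos also varied more among themselves, with a median SD of 0.86 on the log2 scale against 0.39 in the in vivo group, and with the wider spread in NTM for 7936 genes (74.2%).

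The size of this imbalance depended on what the libraries were scaled to, since the median difference of all tested genes was itself -0.69. With values scaled to the reads on nuclear genes the median was -0.40, with 548 higher and 1308 lower genes. With median-ratio scaling it was -0.12, with 633 higher and 1056 lower genes, so the higher genes made up 37.5% of the calls instead of 15.6%. Lower calls outnumbered higher ones under all 3 scalings. The count was sensitive to each in vivo library: 1161, 988 and 1134 genes were called without in vivo replicate 1, 2 or 3. The differences below are NTM minus in vivo on the log2(RPKM + 1) scale with standard errors, and list medians are to be read against the -0.69 of all tested genes.

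The largest difference among the named genes was that of Mt1, a metallothionein (a small cysteine-rich protein that binds zinc and copper and buffers oxidants). Mt1 (ENSMUSG00000031765, chr8:94179082-94180327, plus strand, GRCm38) had 13732, 16078 and 12698 RPKM in the in vivo libraries and 43.2, 27.7 and 22.4 RPKM in the NTM libraries, a log2 difference of -8.83 ± 0.28, limma adjusted p = 1.3e-05. Its neighbour Mt2 (ENSMUSG00000031762, chr8:94172664-94173568, plus strand), the other ubiquitous metallothionein, had 866, 968 and 753 RPKM in the in vivo libraries and 2.89, 4.23 and 0.7804 RPKM in the NTM libraries, a difference of -8.02 ± 0.47, limma adjusted p = 0.00015. The groups were far apart for both genes, and the in vivo libraries lay close together. Both genes were low on either side of the 4-cell stage in vivo: the means of Mt1 were 0.311 RPKM in 2-cell and 45.7 ± 6.55 RPKM in 8-cell in vivo embryos, and 15.3 RPKM in MEFs. Mt2 had 0.0966 RPKM in 2-cell and 1.73 ± 0.4005 RPKM in 8-cell in vivo embryos. Metallothionein genes are classically induced by metal through MTF1, which binds metal response elements, so the 250 bases before each start site were searched on both strands for the core letters TGCACNC and TGCGCNC. The sequences are those of RefSeq on GRCm38.p6 in the direction of the gene, shown because Mt1 had the largest difference and Mt2, its neighbour, was also among the 10 largest, and capitals mark the matches.
Mt1: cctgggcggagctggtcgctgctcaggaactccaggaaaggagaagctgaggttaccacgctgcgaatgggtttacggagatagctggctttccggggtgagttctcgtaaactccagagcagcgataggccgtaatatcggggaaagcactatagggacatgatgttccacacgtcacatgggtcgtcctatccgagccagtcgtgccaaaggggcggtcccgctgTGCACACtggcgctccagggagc
Mt2: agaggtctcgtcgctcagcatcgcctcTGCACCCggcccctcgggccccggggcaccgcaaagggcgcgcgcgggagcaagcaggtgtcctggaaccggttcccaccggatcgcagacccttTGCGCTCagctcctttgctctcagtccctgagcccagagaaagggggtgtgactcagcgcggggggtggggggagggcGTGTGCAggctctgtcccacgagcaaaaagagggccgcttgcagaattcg
Only these windows before the RefSeq starts were searched, so elements outside them were not counted for either gene. The RefSeq starts differ from the gene starts printed above, which come from another annotation, and distances below are counted from the RefSeq starts. The Mt1 sequence (chr8:94178839-94179088, plus strand) held 1 match, 23 to 17 bases before the start. The Mt2 sequence (chr8:94172368-94172617, plus strand) held 3 matches, 223 to 217, 128 to 122 and, on the opposite strand, 50 to 44 bases before the start. Of 32851 promoters of this length, 21.4% held a match to either core and 1.26% held at least 3, and a match is a description of the letters, not of binding.

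Other genes of the group with the largest negative differences were spread over unlike functions. Dppa3 (Stella), a maternal factor that protects DNA methylation in the zygote, had 12402, 8284 and 9154 RPKM in the in vivo libraries and 25.3, 51.4 and 37.3 RPKM in the NTM libraries (-8.03 ± 0.31, limma adjusted p = 1.4e-05). It was thus far above its own 2-cell and 8-cell in vivo means of 43.9 and 105 RPKM in the in vivo 4-cell embryos only, and the NTM embryos lay near those means. Uqcr10, a small subunit of respiratory complex III, had 2361, 2100.4 and 2288 RPKM in the in vivo libraries and 16.5, 5.78 and 2.97 RPKM in the NTM libraries (-8.17 ± 0.52, limma adjusted p = 0.00016). Atg101, a subunit of the kinase complex that starts autophagy, had 342, 233 and 293 RPKM in the in vivo libraries and 0.467, 0.0832 and 5.91 RPKM in the NTM libraries (-7.01 ± 0.71, limma adjusted p = 0.00079). For these 3 genes the groups did not come near each other. Obox8, a homeobox factor of the oocyte-specific Obox cluster, had 1495, 977 and 414 RPKM in the in vivo libraries and 0.6402, 5.35 and 8.74 RPKM in the NTM libraries (-7.51 ± 0.74, limma adjusted p = 0.00074), with a wide spread in vivo. Ndufa2, a subunit of complex I, had 472, 266 and 244 RPKM in the in vivo libraries and 2.31, 2.15 and 0.284 RPKM in the NTM libraries (-7.04 ± 0.53, limma adjusted p = 0.00026). Rps29, a protein of the small ribosomal subunit, had 669.7, 544 and 689 RPKM in the in vivo libraries and 3.32, 2.51 and 4.54 RPKM in the NTM libraries (-7.17 ± 0.36, limma adjusted p = 7.2e-05). The NTM values of Rps29 were close to the means of 4.59 RPKM in in vivo 8-cell embryos and 8.88 RPKM in MEFs.

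Replication-dependent histone genes of the chromosome 13 cluster belonged to the same group. Hist1h2ap, an H2A gene, had 1248, 317 and 603 RPKM in the in vivo libraries and 0.119, 1.91 and 0 RPKM in the NTM libraries (-8.71 ± 0.65, limma adjusted p = 0.00026). Hist1h4d, an H4 gene, had 426, 223 and 244 RPKM in the in vivo libraries and was listed at 0 in all NTM libraries (limma adjusted p = 0.00012), so no fold is given. In the other in vivo and NTM groups the means of Hist1h2ap and Hist1h4d were at most 7.46 and 3.08 RPKM, and in MEFs 0.0762 and 0.606 RPKM. The part of library preparation in their in vivo 4-cell level was not tested. Histone, ribosomal protein and Obox genes have near-identical copies among which reads may have been divided, so the level of any single copy is uncertain.

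**Figure D1:**
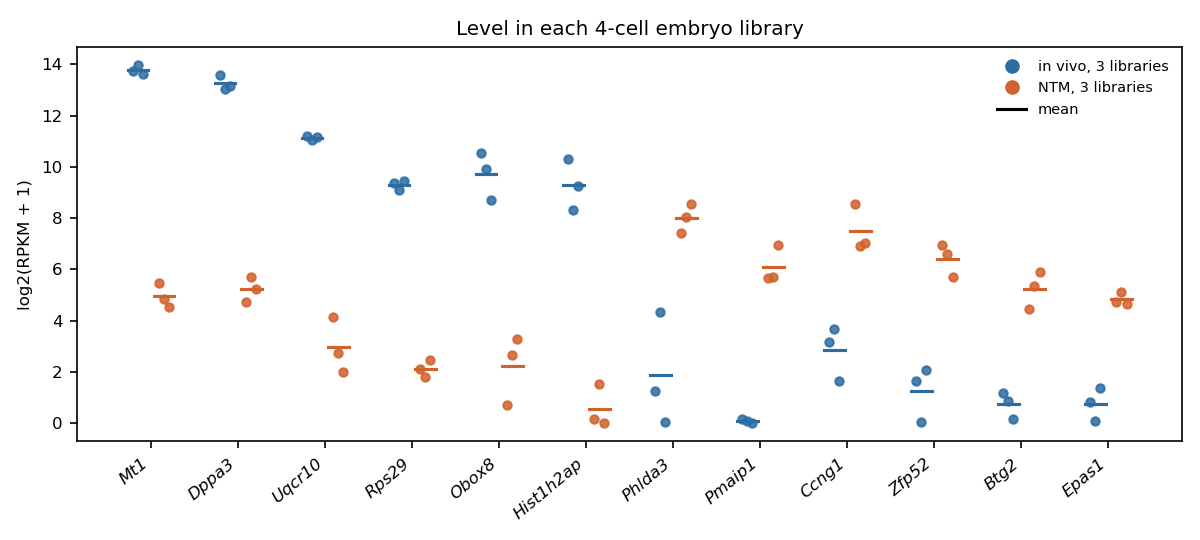
Level, as log2(RPKM + 1), of 12 named genes in each of the 3 in vivo (blue) and 3 NTM (orange) 4-cell libraries, with 1 point per embryo and a bar at the mean of each group. From Mt1 to Hist1h2ap all NTM points lie below the in vivo points, with Mt1 at 12698 to 16078 RPKM in vivo and 22.4 to 43.2 RPKM in NTM, and from Phlda3 to Epas1 they lie above them.

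The lower genes were largely genes with an in vivo 4-cell peak. Of the 1907, 1442 (75.6%) had their highest mean among all 18 embryo groups of the series in the in vivo 4-cell group, against 28.5% of all tested genes. Their median level was 1.32 RPKM in in vivo 2-cell, 20.99 in in vivo 4-cell and 1.90 in in vivo 8-cell embryos. In NTM embryos it was 1.26, 1.52 and 1.83 RPKM at the same stages. For 1438 of them (75.4%) the NTM 4-cell mean was within 1 log2 unit of the in vivo 8-cell mean. Since a gene that peaks in the in vivo 4-cell group was the more likely to be called lower, these shares describe the genes and carry no test. The sources used here do not say whether these libraries were prepared or sequenced apart from those of other stages, so a difference in preparation and a difference between embryos cannot be told apart for these genes.

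**Figure D2:**
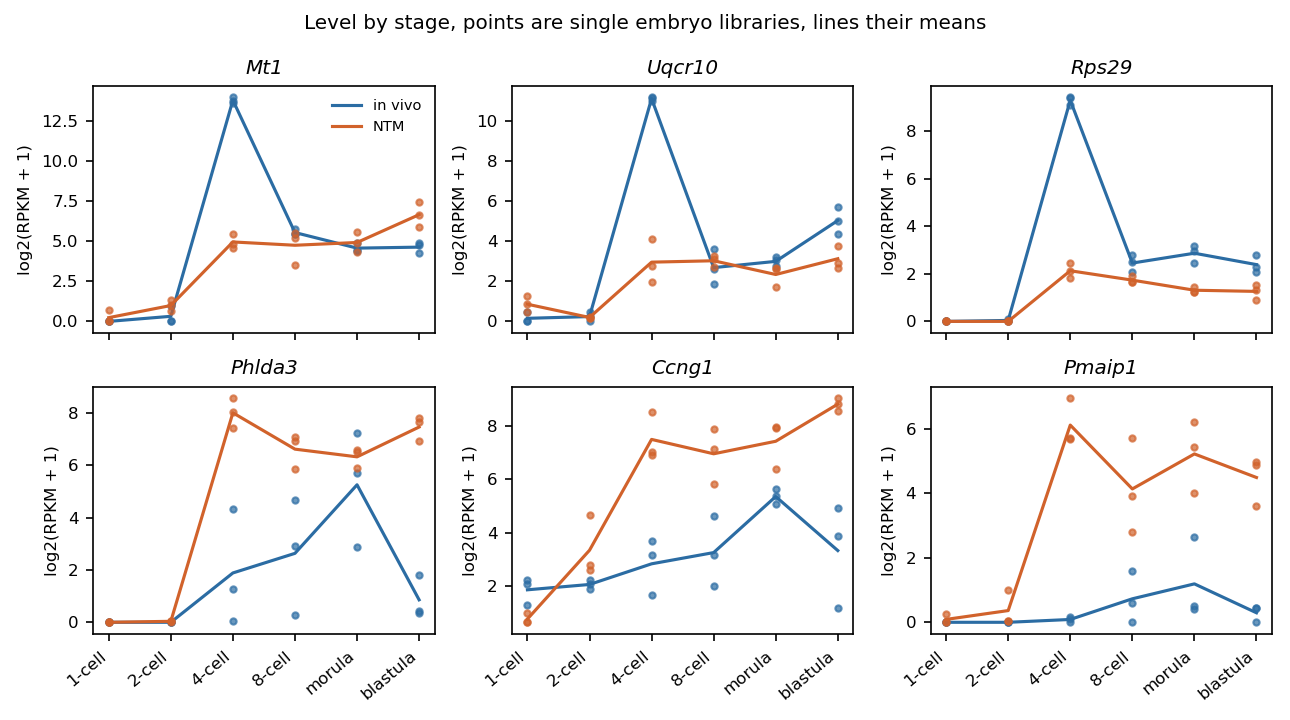
Level, as log2(RPKM + 1), of Mt1, Uqcr10, Rps29, Phlda3, Ccng1 and Pmaip1 from the 1-cell to the blastula stage in in vivo (blue) and NTM (orange) embryos, with 1 point per library and a line through the means of 3. The in vivo lines of Mt1, Uqcr10 and Rps29 peak at the 4-cell stage, far above the NTM lines there. The NTM line of Rps29 is also highest at that stage, at a mean of 3.46 RPKM against 634 RPKM in vivo. The NTM lines of Phlda3, Ccng1 and Pmaip1 lie above the in vivo ones from the 4-cell stage on.

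Among the genes higher in NTM embryos, 4 of the 10 with the largest differences (genes with pseudogene or clone symbols left out) were targets of the tumour suppressor p53. Phlda3, which blocks the kinase Akt by competing for membrane lipid, had 1.41, 19.1 and 0.0393 RPKM in the in vivo libraries and 169.8, 261 and 378 RPKM in the NTM libraries (6.12 ± 1.001, limma adjusted p = 0.00534), with a wide spread in vivo. Pmaip1 (Noxa), a BH3-only inducer of apoptosis, had 0.115, 0.0761 and 0 RPKM in the in vivo libraries and 50.2, 51.3 and 122 RPKM in the NTM libraries (6.02 ± 0.53, limma adjusted p = 0.00045). Its in vivo values were at the level of a few reads or 0. Ccng1 (cyclin G1), which feeds back on p53 through Mdm2, had 8.08, 11.9 and 2.16 RPKM in the in vivo libraries and 369.7, 121 and 130.1 RPKM in the NTM libraries (4.65 ± 0.67, limma adjusted p = 0.00311). Btg2, an antiproliferative partner of the mRNA deadenylase, had 1.28, 0.856 and 0.134 RPKM in the in vivo libraries and 20.8, 39.7 and 58.2 RPKM in the NTM libraries (4.47 ± 0.58, limma adjusted p = 0.001999). These genes were picked among those without overlap between the groups, so their lack of overlap is no added support. All 4 were above every one of the 9 in vivo libraries of the 2-cell, 4-cell and 8-cell stages. These 9 include the in vivo libraries of the contrast. Btg2 was the one most abundant in the donor cell type, with 873 ± 106 RPKM in MEFs. At the 8-cell stage, in other embryos, the mean of Ccng1 was 145 ± 91.4 RPKM in NTM and 11.6 ± 10.9 RPKM in in vivo embryos, a difference of 3.70 that passed the test. The 8-cell differences of Phlda3 (3.98), Pmaip1 (3.40) and Btg2 (2.12) did not pass.

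The 250 bases before the start sites of Ccng1, Btg2 and Phlda3 were searched on both strands for the decamer of the p53 response element, with capitals marking a match. They are 3 of the 4 targets of one known regulator among the largest positive differences, and the sequence of Pmaip1 was not used here.
Ccng1: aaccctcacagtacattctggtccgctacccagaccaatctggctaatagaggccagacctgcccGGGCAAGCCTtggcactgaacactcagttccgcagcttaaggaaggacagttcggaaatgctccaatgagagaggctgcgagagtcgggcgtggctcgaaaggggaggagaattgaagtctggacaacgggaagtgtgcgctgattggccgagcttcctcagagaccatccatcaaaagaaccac
Btg2: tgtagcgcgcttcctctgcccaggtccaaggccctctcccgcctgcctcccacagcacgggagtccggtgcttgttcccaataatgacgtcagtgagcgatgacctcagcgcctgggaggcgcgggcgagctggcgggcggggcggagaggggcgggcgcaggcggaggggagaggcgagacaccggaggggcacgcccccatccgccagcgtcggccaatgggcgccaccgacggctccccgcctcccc
Phlda3: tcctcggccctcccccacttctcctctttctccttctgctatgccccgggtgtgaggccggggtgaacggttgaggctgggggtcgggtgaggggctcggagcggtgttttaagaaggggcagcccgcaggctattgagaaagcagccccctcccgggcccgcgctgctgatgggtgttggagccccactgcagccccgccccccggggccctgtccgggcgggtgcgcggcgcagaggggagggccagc
The Ccng1 sequence (chr11:40755287-40755536, minus strand, GRCm38.p6) held the decamer 185 to 176 bases before the start, where it reads as a match on both strands. The sequences of Btg2 (chr1:134079156-134079405, minus strand) and Phlda3 (chr1:135765835-135766084, plus strand) held none, which says only that these letters were not in this window. The decamer was found in 7.13% of 32851 promoters.

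The list of p53 targets and Bcl2 family genes as a whole moved both ways. Of 27 tested members, 5 were higher and 3 lower (background 3.29% and 17.8%), and the median difference was 0.54 against -0.69 for all tested genes. The fifth higher member was Mcl1, an antiapoptotic Bcl2 protein, with 38.1, 25.4 and 42.3 RPKM in the in vivo libraries and 87.2, 109.7 and 79.6 RPKM in the NTM libraries (1.38 ± 0.37, limma adjusted p = 0.0342). The lower members were Bcl2l14 (-3.44) and the proapoptotic Bok (-2.92) and Bad (-2.84). The best known targets did not pass: Cdkn1a, the cell cycle inhibitor p21, had 49.02, 45.6 and 48.7 RPKM in the in vivo libraries and 43.3, 59.5 and 44.4 RPKM in the NTM libraries (0.02 ± 0.35, limma adjusted p = 0.965). Mdm2, the ubiquitin ligase of p53, differed by 0.52 ± 0.52, and Bax, the pore-forming apoptosis effector, by 0.73 ± 0.39. Bbc3 (Puma) had 0.0379, 2.24 and 1.25 RPKM in the in vivo libraries and 2.09, 40.2 and 15.4 RPKM in the NTM libraries and missed the threshold (limma adjusted p = 0.0841). Trp53 itself had 32.4, 88.1 and 47.5 RPKM in the in vivo libraries and 13.6, 41.5 and 18.6 RPKM in the NTM libraries (-1.19 ± 0.57, limma adjusted p = 0.172), with overlapping groups.

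**Figure D3:**
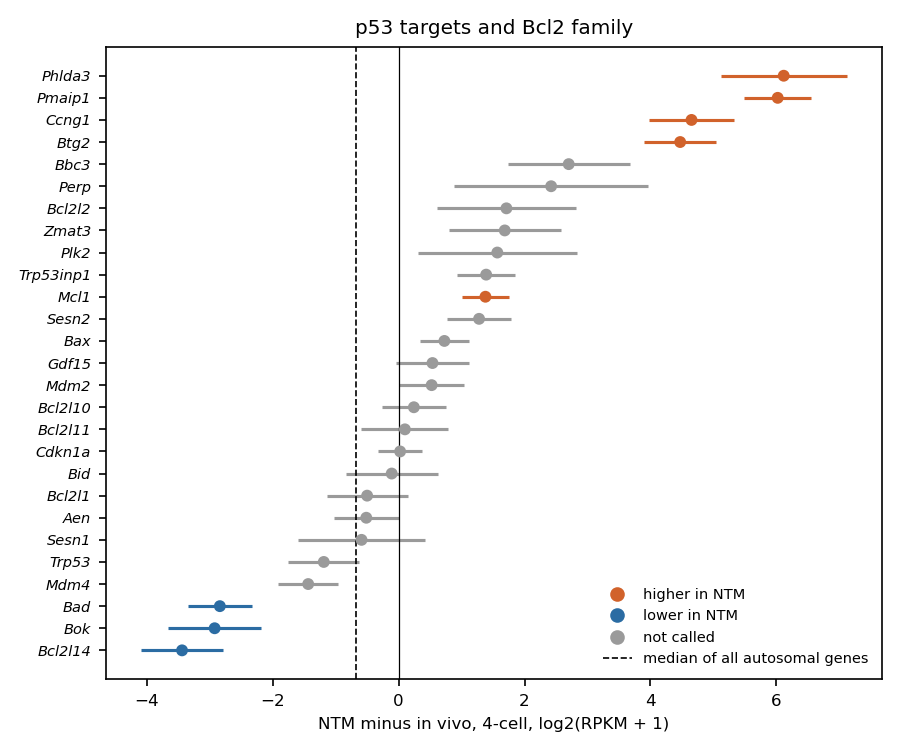
Log2 difference, NTM minus in vivo at the 4-cell stage, of each of the 27 tested p53 target and Bcl2 family genes, with bars of 1 standard error, coloured by call, and a dashed line at the median of all tested autosomal genes. Phlda3 (6.12), Pmaip1 (6.02), Ccng1 (4.65) and Btg2 (4.47) lie far to the right, while Cdkn1a lies at 0.02 and Trp53 at -1.19.

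The other 6 of the 10 were of unlike functions. Bfsp1, a lens intermediate filament protein, was listed at 0 in all in vivo libraries and had 23.01, 46.97 and 19.9 RPKM in the NTM libraries (limma adjusted p = 0.001103). It was already present in NTM embryos at the 2-cell stage, at a mean of 239.6 RPKM, and was near 0 in MEFs (0.00662 RPKM). Zfp52, a KRAB zinc finger protein, had 2.13, 0.0309 and 3.18 RPKM in the in vivo libraries and 124, 95.3 and 50.5 RPKM in the NTM libraries (5.16 ± 0.66, limma adjusted p = 0.00191). Rab21, a small GTPase of early endosomes, had 2.71, 2.95 and 1.95 RPKM in the in vivo libraries and 113, 48.8 and 113 RPKM in the NTM libraries (4.63 ± 0.50, limma adjusted p = 0.00103). Rab21 was abundant in 2-cell embryos of both kinds, with means of 504 RPKM in vivo and 469.5 RPKM in NTM. Ubl3, a membrane-anchored ubiquitin-like protein, had 1.46, 2.43 and 2.602 RPKM in the in vivo libraries and 69.2, 111 and 38.1 RPKM in the NTM libraries (4.43 ± 0.53, limma adjusted p = 0.001501). Ube2s, the ubiquitin-conjugating enzyme of the anaphase-promoting complex, had 6.76, 9.86 and 12.5 RPKM in the in vivo libraries and 404, 116 and 133 RPKM in the NTM libraries (4.15 ± 0.55, limma adjusted p = 0.00229), but the in vivo 4-cell value was itself a low point between 148 RPKM in 2-cell and 311 RPKM in 8-cell in vivo embryos. Ogfr, the opioid growth factor receptor, had 0.0590000, 0 and 1.12 RPKM in the in vivo libraries and 33.7, 32.3 and 9.46 RPKM in the NTM libraries (4.13 ± 0.66, limma adjusted p = 0.0048998).

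A stricter view of the higher genes set the NTM 4-cell libraries against all 9 in vivo libraries of the 2-cell, 4-cell and 8-cell stages. Of the 352 higher genes, 108 (30.7%) had every NTM value above all 9, against 219 of 10700 tested genes (2.05%). Of the 20 genes with the largest differences, these were Phlda3, Pmaip1, Zfp52, Bfsp1, Ccng1 and Btg2. Of the 1907 lower genes, 70 (3.67%) had every NTM value below all 9, against 112 of all tested genes (1.05%). Both counts include the 4-cell contrast that made the calls and are given as descriptions.

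The most abundant autosomal transcripts of the groups were different genes. In vivo embryos had, after Mt1 and Dppa3, most of Rpl41, the smallest ribosomal protein (6497, 4619 and 3627 RPKM), Gcsh, a carrier protein of the mitochondrial glycine cleavage system (3688, 3169 and 3701 RPKM), and Fbxo15, an F-box protein marking undifferentiated cells (2502, 3459 and 3717 RPKM). All 3 were lower in NTM embryos, with differences of -5.34 ± 0.35, -2.81 ± 0.22 and -2.23 ± 0.37. NTM embryos had most of Eef1a1, the elongation factor that brings aminoacyl-tRNA to the ribosome, with 354, 635 and 688 RPKM in the in vivo libraries and 2132, 1956 and 3393 RPKM in the NTM libraries (2.17 ± 0.32, limma adjusted p = 0.00359). Fth1, the ferritin heavy chain that stores iron, had 660.0, 556 and 477 RPKM in the in vivo libraries and 3089, 2731 and 1251 RPKM in the NTM libraries (1.97 ± 0.35, limma adjusted p = 0.00707). Neither gene overlapped between the groups, and Fth1 was also higher at the 8-cell stage (difference 1.91). The next in level in NTM embryos were Rps3a1 (0.69), Rplp1 (0.81) and the nucleolar protein Npm1 (-0.85), which did not pass (limma adjusted p = 0.0785, 0.1197 and 0.0797).

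Of the gene lists examined, that of mitochondrial energy supply had the lowest median. Of 76 tested nuclear-encoded respiratory chain subunits, 41 were lower and none higher (background 17.8% lower), and the median was -2.24. All complexes contributed: 16 of 35 subunits of complex I, 1 of 4 of complex II, 6 of 10 of complex III with cytochrome c, 7 of 11 of complex IV and 11 of 16 of ATP synthase were lower. Beside Uqcr10 and Ndufa2, Ndufa13 of complex I had 262, 152 and 164 RPKM in the in vivo libraries and 4.48, 1.73 and 1.44 RPKM in the NTM libraries (-5.82 ± 0.49, limma adjusted p = 0.00037), and Cox7c of complex IV had 127, 92.04 and 131 RPKM in the in vivo libraries and 1.37, 1.81 and 0.624 RPKM in the NTM libraries (-5.72 ± 0.45, limma adjusted p = 0.00029). The groups did not overlap for either gene. The nuclear subunits were low in the libraries in which the mitochondrial transcripts took the larger share of reads. Scaled to reads on nuclear genes, 34 were lower and 1 higher, with a median of -1.81. In 8-cell embryos none of 72 passed, and the median was -0.19. Of mitochondrial ribosomal proteins, 31 of 76 were lower and 1 higher (median -1.58): Mrpl57 (-6.31), Mrpl22 (-6.25), Mrps22 (-5.69) and Mrps23 (-5.20) were lowest, and Mrps2 (1.24) was the higher one.

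Cytosolic ribosomal proteins were lower for most members and higher for a few. Of 75 tested, 45 were lower and 2 higher, with a median of -2.05, in like measure for the large subunit (27 of 44 lower) and the small subunit (18 of 31). Rpl28 had 208, 193 and 198 RPKM in the in vivo libraries and 1.44, 1.78 and 0.973 RPKM in the NTM libraries (-6.40 ± 0.40, limma adjusted p = 0.00016). Rpl38 (-6.26 ± 0.39) and Rps21 (-5.95 ± 0.45) differed nearly as much. In the other direction, Rps12 had 114, 121 and 129 RPKM in the in vivo libraries and 1318, 936 and 512 RPKM in the NTM libraries (2.81 ± 0.36, limma adjusted p = 0.00199) and Rpl17 301, 337 and 348 RPKM in the in vivo libraries and 1175, 1174 and 535 RPKM in the NTM libraries (1.46 ± 0.34, limma adjusted p = 0.0196), without overlap in either case. The members therefore did not move as one, and scaling to nuclear reads turned the counts to 38 lower and 9 higher. In 8-cell embryos 8 of 73 were lower and 1 higher. Short transcripts were called more often: among all tested genes, 24.3% of the 2142 shortest by exon length (up to 1704 nt) and 9.81% of the 2140 longest (from 6774 nt) were lower, with medians of -0.98 and -0.40. Ribosomal proteins and respiratory chain subunits are mostly short, and the part of transcript length in their differences was not tested. The medians of the same length classes in 8-cell embryos were 0.03 and 0.26.

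The rest of the translation machinery was mixed. Among 45 translation initiation factors, 11 were lower and 3 higher, with a median of -0.42 that turned to 0.11 under median-ratio scaling. Subunits of the guanine exchange factor eIF2B and of eIF3 were lower, with Eif2b4 at -4.32 ± 0.46, Eif3k at -4.14 ± 0.51 and Eif3d at -3.79 ± 0.47. Eif5a, the hypusine-bearing factor, had 909, 876 and 906 RPKM in the in vivo libraries and 39.5, 50.3 and 172 RPKM in the NTM libraries (-3.66 ± 0.52, limma adjusted p = 0.00286). Of the higher members, Eif4ebp1, which binds and represses the cap-binding factor eIF4E, had 72.7, 53.6 and 45.4 RPKM in the in vivo libraries and 365, 270.1 and 312 RPKM in the NTM libraries (2.46 ± 0.32, limma adjusted p = 0.00204), and Eif4g2, an initiation factor that lacks the eIF4E-binding part of its relatives (2.03 ± 0.32) and the helicase Eif4a1 (1.61 ± 0.41) were higher as well. Of 23 aminoacyl-tRNA synthetases and cofactors, 5 (21.7%) were lower and none higher (median -1.02), near the background of 17.8%, among them the cofactor Eef1e1 (-2.69), Wars (-3.28) and Yars (-3.27).

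Genes of protein folding and turnover had more lower calls than the background. Of 46 proteasome subunits, 23 were lower and 1 higher (median -1.83), including 6 of 8 beta subunits of the catalytic core and 4 of 6 regulatory ATPases. Psmb5, the chymotrypsin-like catalytic subunit, had 790.3, 584 and 657 RPKM in the in vivo libraries and 23.4, 7.28 and 10.03 RPKM in the NTM libraries (-5.69 ± 0.45, limma adjusted p = 0.00029), and Psmc5, an ATPase, had 288, 252 and 292 RPKM in the in vivo libraries and 3.34, 0.587 and 14.9 RPKM in the NTM libraries (-5.86 ± 0.77, limma adjusted p = 0.00216). The higher one was Psmd8, a lid subunit, with 95.2, 123 and 148 RPKM in the in vivo libraries and 514, 219 and 593 RPKM in the NTM libraries (1.75 ± 0.42, limma adjusted p = 0.0233). None of 45 subunits passed in 8-cell embryos. Of 31 chaperone genes, 11 (35.5%) were lower and 3 (9.68%) higher. The cytosolic chaperonin subunits Cct8 (-6.64 ± 0.54) and Cct3 (-5.01 ± 0.42) were lower, as was the constitutive Hspa8, with 791, 996 and 1137 RPKM in the in vivo libraries and 23.1, 13.3 and 75.5 RPKM in the NTM libraries (-5.02 ± 0.58, limma adjusted p = 0.00135). The inducible Hsp90aa1 was higher, with 313, 352 and 428 RPKM in the in vivo libraries and 1869.9, 1319 and 1225 RPKM in the NTM libraries (1.998 ± 0.25, limma adjusted p = 0.00169), and so were Hspa4 (1.93) and the mitochondrial Hspd1 (1.76).

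**Figure D4:**
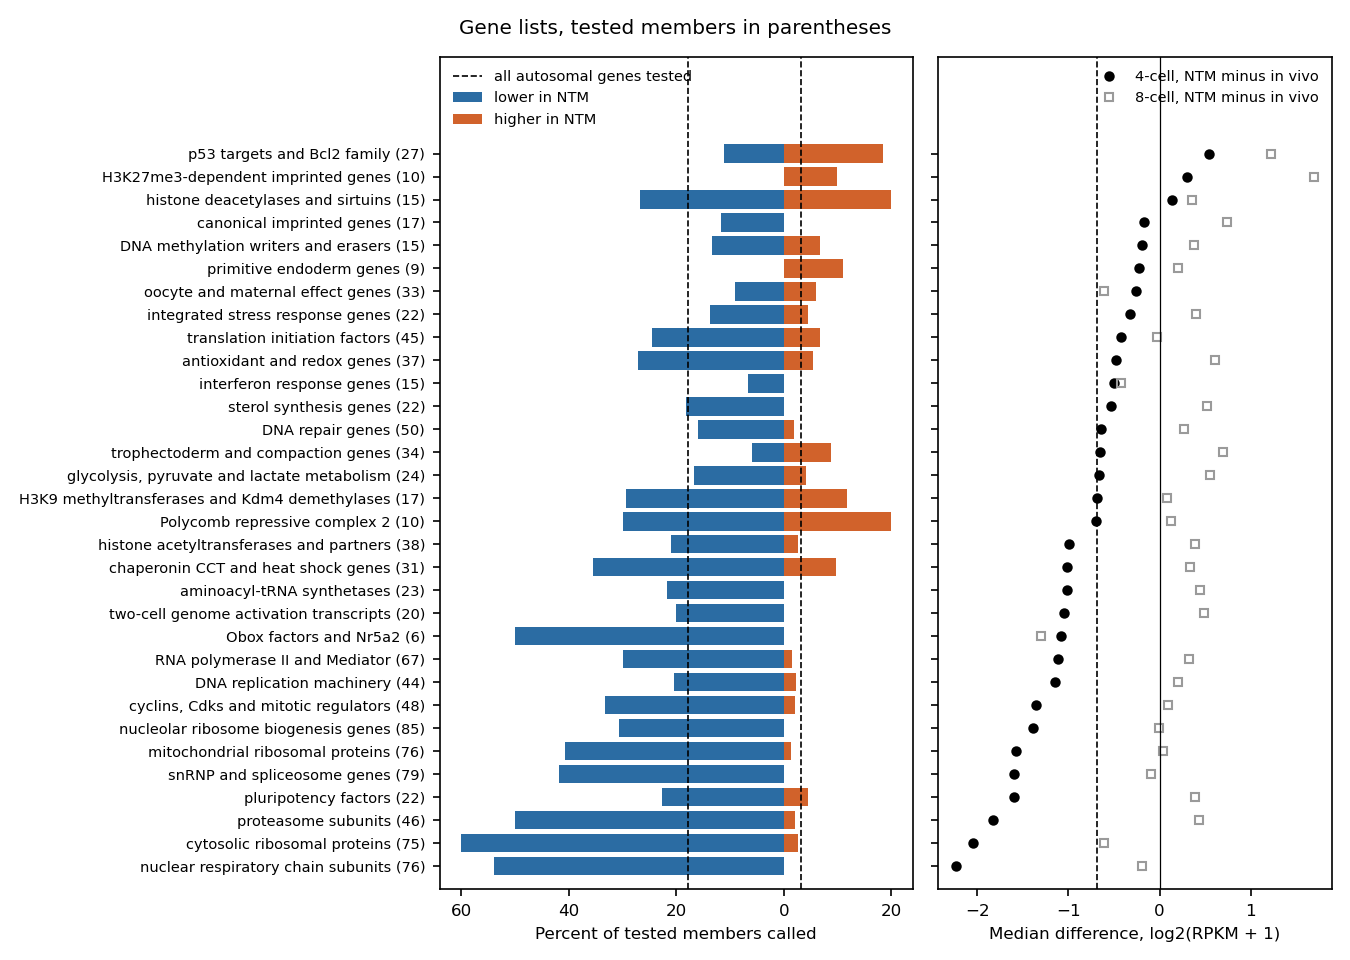
Left, the percent of tested members of each gene list called lower (blue) or higher (orange) in NTM 4-cell embryos, with dashed lines at 17.8% and 3.29% for all autosomal genes tested; right, the median log2 difference of each list at the 4-cell stage (black) and the 8-cell stage (grey), with a dashed line at the 4-cell median of all tested genes. Respiratory chain subunits (median -2.24) and cytosolic ribosomal proteins (-2.05) have the lowest 4-cell medians of the lists drawn, and p53 targets and Bcl2 family genes (0.54) the highest.

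The lists of transcription and RNA processing genes had more lower calls than the background of 17.8%, but Mediator subunits taken alone lay near all tested genes. Of 67 genes of RNA polymerase II, Mediator and the general transcription factors, 20 (29.9%) were lower and 1, the TFIID subunit Taf7 (1.30), higher (median -1.11). Among the lower ones were 8 of 13 polymerase subunits (median -1.83) but 6 of 30 Mediator subunits. The Mediator median was -0.65, near the -0.69 of all tested genes. Med31 of Mediator had 193, 159 and 214 RPKM in the in vivo libraries and 1.33, 0.769 and 0.658 RPKM in the NTM libraries (-6.63 ± 0.42, limma adjusted p = 0.00016). Gtf2h5, the smallest subunit of TFIIH, had 260.0, 139 and 150.3 RPKM in the in vivo libraries and 4.79, 3.902 and 3.19 RPKM in the NTM libraries (-5.17 ± 0.43, limma adjusted p = 0.00035), and the polymerase subunits Polr2h and Polr2i differed by -4.98 ± 0.54 and -4.91 ± 0.49. Of 79 small nuclear ribonucleoprotein and spliceosome genes, 33 (41.8%) were lower and none higher (median -1.60). The core Sm protein Snrpd1 had 463, 335 and 408 RPKM in the in vivo libraries and 5.699, 7.09 and 1.75 RPKM in the NTM libraries (-6.24 ± 0.49, limma adjusted p = 0.00029), and the splice site factors Sf3b5 (-4.87), Snrpa (-4.60) and Snrpb2 (-4.51) were lower too. Of 85 nucleolar genes of ribosome assembly, 26 (30.6%) were lower and none higher (median -1.39). Imp3 of the small subunit processome had 193, 162 and 239 RPKM in the in vivo libraries and 1.06, 6.42 and 2.11 RPKM in the NTM libraries (-5.76 ± 0.55, limma adjusted p = 0.00062), and Polr1d and Polr1c, shared by RNA polymerases I and III, differed by -5.62 and -5.11. At the 8-cell stage none of 74 spliceosome and none of 84 nucleolar genes passed, and their medians were -0.10 and -0.01.

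Of 48 cyclins, Cdks and mitotic regulators, 16 (33.3%) were lower and 1 higher (median -1.36). Cdk1, the kinase that drives mitosis, had 156, 156 and 189 RPKM in the in vivo libraries and 8.76, 2.52 and 7.42 RPKM in the NTM libraries (-4.66 ± 0.49, limma adjusted p = 0.00094). The spindle checkpoint protein Bub3 had 219.9, 241 and 151 RPKM in the in vivo libraries and 4.25, 1.29 and 6.44 RPKM in the NTM libraries (-5.49 ± 0.53, limma adjusted p = 0.00066), and Ccnb2 (-5.28 ± 0.59) and Plk1 (-5.17 ± 1.06) were lower as well. The higher member was the cohesin subunit Rad21, with 114, 59.1 and 70.7 RPKM in the in vivo libraries and 242, 323 and 322 RPKM in the NTM libraries (1.89 ± 0.35, limma adjusted p = 0.00836). Of 44 replication genes 9 were lower, close to the background, among them Rrm2 (-4.92), Cdc45 (-4.74) and the sliding clamp Pcna (-4.47). One, Gins4 of the helicase, was higher (1.43). Of 50 DNA repair genes 8 were lower, led by the abasic endonuclease Apex1 (-5.37), and the ultraviolet damage sensor Ddb1 was higher (1.55), again near the background.

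The lists of 2-cell, Obox and maternal genes differed in their share of lower calls (background 17.8%). Of 20 tested transcripts of the Dux-driven 2-cell programme, 4 were lower and none higher, near the background: Rnf167 (44.5, 43.4 and 44.4 against 0.682, 0.231 and 1.23 RPKM), Tmem92 (-3.41), Sp110 (-1.78) and Usp17lb, which was listed at 0 in NTM. Of the 6 genes tested among the Obox factors and Nr5a2, 3 were lower (50%), Obox8, Obox2 and Obox6. Under the nuclear and median-ratio scalings 2 and 1 of the 6 were lower. Obox6 had 1049, 1416 and 1283 RPKM in the in vivo libraries and 472, 311 and 866 RPKM in the NTM libraries (-1.30 ± 0.36, limma adjusted p = 0.0395), and Obox2 was listed at 0 in NTM libraries and reached at most 2.77 RPKM in vivo. Of 33 maternal genes, 3 (9.09%) were lower, among them Dppa3 and Zbed3 (-2.36). Zp2 (3.32) and the oocyte linker histone H1foo (2.44) were higher (6.06%). The demethylase Kdm1b was lower (-2.51). The median of the maternal genes was -0.26, and it turned to 0.05 and 0.37 under the nuclear and median-ratio scalings.

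Pluripotency and lineage factors differed one by one. Of 22 pluripotency genes, 5 (22.7%) were lower and 1 (4.55%) higher, shares near the background of 17.8% and 3.29%, and the median was -1.60. Dppa5a, an RNA-binding protein of pluripotent cells, had 1909.8, 1381 and 1764 RPKM in the in vivo libraries and 38.6, 29.4 and 30.8 RPKM in the NTM libraries (-5.63 ± 0.27, limma adjusted p = 5.7e-05). Dppa2, an activator of early embryonic genes, had 793, 947 and 939 RPKM in the in vivo libraries and 73.2, 164 and 229.5 RPKM in the NTM libraries (-2.66 ± 0.41, limma adjusted p = 0.004296). Nanog (7.497, 13.1 and 16.996 against 3.87, 0 and 1.96 RPKM), Tbx3 (-2.55) and Klf17 (-2.18) were lower at limma adjusted p of 0.0457, 0.03597 and 0.0183. Klf4 was higher, with 2.97, 8.61 and 8.24 RPKM in the in vivo libraries and 42.97, 163 and 43.3 RPKM in the NTM libraries (3.28 ± 0.66, limma adjusted p = 0.0122). Of 34 trophectoderm and compaction genes, the tight junction genes Cldn7 (-3.14) and Ocln (-2.84) were lower (5.88%). Higher were 3 genes (8.82%) of the Hippo pathway, Amotl2 (3.29), Lats2 (2.37) and Tead1 (2.30). Tead1, the DNA-binding partner of Yap, had 0.839, 0.812 and 0.987 RPKM in the in vivo libraries and 5.87, 10.96 and 8.72 RPKM in the NTM libraries (2.30 ± 0.50, limma adjusted p = 0.0158). Of 9 primitive endoderm genes, the basement membrane laminin Lamb1 was higher (2.27).

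Chromatin genes moved in both directions. Suz12 and Eed, core subunits of Polycomb repressive complex 2, were higher: Suz12 had 67.5, 43.4 and 46.3 RPKM in the in vivo libraries and 294, 410.3 and 414 RPKM in the NTM libraries (2.82 ± 0.33, limma adjusted p = 0.00135) and Eed 49.9, 50.05 and 84.8 RPKM in the in vivo libraries and 149, 205 and 229 RPKM in the NTM libraries (1.66 ± 0.36, limma adjusted p = 0.01596). Ezh1 (-2.21), Rbbp4 (-2.68) and the H3K27 demethylase Kdm6b (-1.48) of the same list of 10 were lower. Of that list 30% were lower and 20% higher (background 17.8% and 3.29%). Of 15 deacetylase genes, Hdac2 (2.02), Sirt1 (1.40) and Sin3b (2.30) were higher (20%) and Hdac1, Sirt6, Sirt7 and Sin3a lower (26.7%). Hdac1 had 267, 242 and 241 RPKM in the in vivo libraries and 15.4, 38.1 and 95.9 RPKM in the NTM libraries (-2.66 ± 0.60, limma adjusted p = 0.0183), so the closely related Hdac1 and Hdac2 differed in opposite directions. Of 38 histone acetyltransferases and partners, 8 (21.1%, near the background) were lower, among them the acetyl-lysine reader Brd1 (-2.43 ± 0.48) and the acetyltransferase Kat5 (-2.47 ± 0.66), and Msl1 was higher (2.21). Of 17 H3K9 methylation genes, 5 (29.4%) were lower and 2 (11.8%) higher. The demethylase Kdm4a had 9.85, 10.1 and 8.89 RPKM in the in vivo libraries and 0.0596, 0 and 0.0657 RPKM in the NTM libraries (-3.35 ± 0.47, limma adjusted p = 0.00275), and the methyltransferase Suv39h2 was higher, with 1.59, 1.61 and 0.778 RPKM in the in vivo libraries and 11.9, 48.7 and 7.34 RPKM in the NTM libraries (2.93 ± 0.73, limma adjusted p = 0.0261). Of 15 DNA methylation genes, Dnmt3l (-3.18) and Mbd4 (-2.01) were lower (13.3%) and Mbd3 (2.64) higher (6.67%).

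Calls among imprinted genes are to be read against 17.8% lower and 3.29% higher for all tested genes. Of 25 autosomal genes imprinted through maternal H3K27me3, 10 were tested and 7 were listed at 0 in all 6 libraries. Of the 10, 1 was higher (10%) and none lower, and the median was 0.30 against -0.69 for all tested genes. Epas1, the hypoxia factor HIF2A, was the one called, with 0.788, 0.0759 and 1.59 RPKM in the in vivo libraries and 25.5, 34.2 and 24.5 RPKM in the NTM libraries (4.07 ± 0.53, limma adjusted p = 0.00214) and no overlap. It was also higher at the 8-cell stage, by 3.67, and 2 of the 8 list members tested there were higher (background 1.27%). The list median at that stage was 1.69 against 0.24 for all genes. Of 17 tested canonical imprinted genes, Igf2r (-4.001 ± 0.52), expressed from the maternal allele, and the Cdk inhibitor Cdkn1c (-1.79 ± 0.45) were lower. This share of 11.8% was under the background.

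Calls among metabolic and stress genes beyond the metallothioneins are to be read against the background of 17.8% lower and 3.29% higher. Of 37 antioxidant genes, 10 were lower and 2 higher (median -0.48). The peroxidase Gpx1 had 263, 342 and 248 RPKM in the in vivo libraries and 7.02, 8.59 and 4.67 RPKM in the NTM libraries (-5.22 ± 0.39, limma adjusted p = 0.00026), and Glrx5, which serves iron-sulfur cluster assembly, differed by -3.94. Both subunits of glutamate-cysteine ligase, the first step of glutathione synthesis, were higher: Gclc had 3.15, 1.41 and 0.734 RPKM in the in vivo libraries and 28.9, 9.06 and 30.2 RPKM in the NTM libraries (3.03 ± 0.64, limma adjusted p = 0.0148) and Gclm 2.71, 4.001 and 1.62 RPKM in the in vivo libraries and 26.2, 8.91 and 12.4 RPKM in the NTM libraries (2.07 ± 0.58, limma adjusted p = 0.0384). Of 24 genes of glycolysis and pyruvate metabolism, 4 (16.7%) were lower, among them Pdhx (-3.97), Eno1 (-2.31) and Aldoa (-2.20). Gapdh of that list was higher (11.8, 11.3 and 10.1 against 124, 23.7 and 126 RPKM). Of 22 integrated stress response genes, Nupr1 (-4.16), Trib3 (-3.17) and Slc3a2 (-2.67) were lower (13.6%) and Eif4ebp1 higher (4.55%). Of 22 sterol synthesis genes 4 (18.2%) were lower, among them Msmo1 (-3.03) and Hmgcs1 (-2.47), and of 15 interferon response genes 1 (6.67%), Stat2 (-3.22). The lower shares of the glycolysis, stress response, sterol and interferon lists were thus near or under the background.

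The differences were also described, without a set test, over gene classes defined on libraries outside the comparison. Genes that rose from the 2-cell to the 8-cell stage in vivo (1185 tested) gave 95 higher (8.02%, background 3.29%) and 284 lower calls (23.97%, background 17.8%). Their median was -0.65, near the -0.69 of all tested genes, and 0.07 under median-ratio scaling. Genes that fell over the same interval (1733 tested) were lower in 188 cases (10.8%) and higher in 52. Of 545 genes high in MEFs and near absent from in vivo 8-cell embryos and morulae, 197 reached the test level, of which 3 (1.52%) were higher and 18 (9.14%) lower in NTM, both under the background. The higher ones were Btg2, the LIM factor Lmo4 and the lysophospholipase Abhd4.

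The differences at the 4-cell stage were compared with those between NTM and in vivo 8-cell embryos, which are other embryos. Of the 1907 lower genes, 1397 were tested at the 8-cell stage. There 53.4% of them had a negative difference, against 39.5% of all 7655 genes tested at both stages, 21 were lower (background 0.705%) and 3 higher (1.27%), and the median was -0.09. Of the 352 higher genes, 344 were tested, and 69.5% of them had a positive difference, against 60.5% of all genes. Of these, 25 (7.27%) were higher and 2 (0.581%) lower, and the median was 0.51 against 0.24 for all genes and 0.31 for genes with no 4-cell call. A direct test of the change in difference, over 10128 genes, found 1701 (16.8%) more positive and 209 (2.06%) more negative at the 8-cell than at the 4-cell stage. Under median-ratio scaling these counts were 788 and 416.

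Among named autosomal genes, Uqcr10, Hist1h2ap, Mt1 and Mt2 had the largest positive changes besides Hist1h4d. Uqcr10 had 11.1, 5.04 and 2.66 RPKM in in vivo and 5.61, 7.58 and 8.62 RPKM in NTM 8-cell libraries, a change in difference of 8.52 ± 0.78 (limma adjusted p = 4.8e-05). Mt1 had 42.2, 41.7 and 53.3 RPKM in in vivo and 10.3, 44.999 and 36.02 RPKM in NTM 8-cell libraries, a change of 8.04 ± 0.64 (limma adjusted p = 2.1e-05). In both cases the in vivo values were lower at the 8-cell stage, and the NTM values of the 4-cell and 8-cell stages overlapped. In the opposite direction Btg4 and E2f5 were among the 5 largest. Btg4, an adaptor of maternal mRNA decay that stood at 5875 RPKM in vivo and 10680.4 RPKM in NTM 2-cell embryos, had 36.95, 29.5 and 18.7 RPKM in in vivo and 41.95, 232 and 32.9 RPKM in NTM 4-cell libraries. At the 8-cell stage it had 42.6, 10.6 and 9.07 RPKM in in vivo and 0.0298, 0 and 0 RPKM in NTM libraries, a change of -5.39 ± 1.02 (limma adjusted p = 0.00328). E2f5, a repressor of the E2F family, was higher in NTM embryos at the 4-cell stage (13.4, 14.5 and 13.1 against 68.01, 86.8 and 47.3 RPKM) and lower at the 8-cell stage (40.6, 22.9 and 24.3 against 2.54, 8.87 and 3.02 RPKM), a change of -4.67 ± 0.66.

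**Figure D5:**
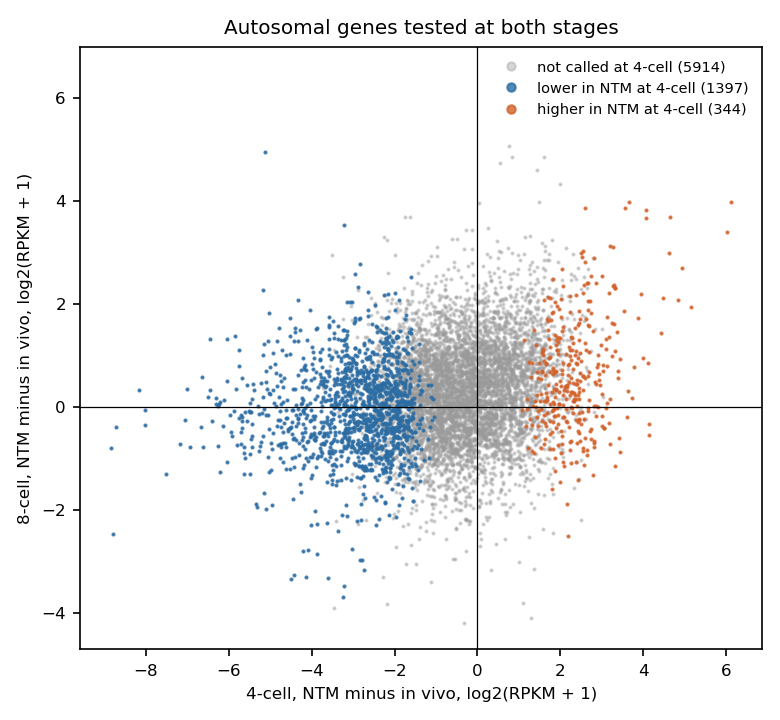
Log2 difference, NTM minus in vivo, of each autosomal gene tested at both stages, at the 4-cell stage (x axis) and at the 8-cell stage (y axis), with genes called higher or lower at the 4-cell stage in colour. Most genes called lower at the 4-cell stage lie near 0 at the 8-cell stage (median -0.09), and the genes called higher lie slightly above it (median 0.51).

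The NTC 4-cell embryos, made from cumulus cell nuclei, were compared with these in vivo libraries too, so their differences are not independent of the NTM ones and are given side by side only. The NTC differences were -8.93 for Mt1, -8.35 for Dppa3, -8.85 for Uqcr10 and -8.34 for Rps29. For the p53 targets they were 6.39 for Phlda3, 3.68 for Pmaip1, 3.28 for Ccng1 and 3.59 for Btg2, of which that of Btg2 did not pass. Over the 1907 lower genes the median was -2.66 in NTM and -2.34 in NTC, and over the 350 higher genes tested in both it was 1.94 in NTC.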

How the data were processed

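Total RNA of single mouse embryos was reverse transcribed with spiked standards, poly(A)-tailed as cDNA, amplified by PCR without molecular identifiers and sequenced from both ends. The authors deposited 1 table of RPKM values, normalised to gene length and to the reads on all genes of a library, mitochondrial genes included. The study's methods name read filtering, TopHat with Bowtie2, and HTSeq counts, while the submitters' processing notes name Bowtie 0.12.2 and the mm8 build, and neither states a strand setting. Gene identifiers were placed with GENCODE M21 on GRCm38 (27056 of 27238 found), and promoters came from RefSeq.

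Because the table holds RPKM and not counts, the study's count-based pairwise test was replaced by limma 3.58.1 in R 4.3.3 (moderated test with trend) on log2(RPKM + 1), for genes with a mean of at least 0.5 RPKM over the libraries compared, with Benjamini-Hochberg adjustment over all 11143 genes tested, of which the autosomal ones are reported. Fold changes on this scale understate the change of low genes. The stage comparison was an interaction term over 12 libraries. Single quantities were compared with two-sided exact permutation tests in Python 3.11.15. Scripts were tested on simulated data.

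Members and gene lists were chosen with earlier results of these data known. Named were the 10 largest differences in each direction (protein-coding, without clone or pseudogene symbols such as Ftl1-ps1, adjusted p under 0.05, groups without overlap, at least 10 RPKM in the higher group), up to 4 called members of each list, the 5 most abundant genes of each group and the 5 largest changes between stages in each direction. Other called or well-known list members (Mcl1, Cdkn1a, Trp53, Rps12 and the like) were named after their values were seen. Read totals come from the spacing of low values, taken as whole reads within 0.01. Alternatives were another pseudocount, no filter, 2 other scalings, a fit over all 20 groups, a replicate block and each library left out. Values after ± are limma standard errors for differences and SDs between libraries for levels, so they reflect the spread between embryos. The floors of 3 reads cover counting error only.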

Additional observations from a re-analysis of the deposited data

Results flagged for a closer look

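The difference between NTM and in vivo embryos was not the same at the 4-cell and 8-cell stages for many genes, by the interaction test (limma, Benjamini-Hochberg adjusted p under 0.05). The difference was more positive at the 8-cell stage for 1701 autosomal genes and more negative for 209.

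Among named autosomal genes, the largest positive changes were those of Uqcr10 (8.52), Hist1h2ap (8.32), Hist1h4d (8.16), Mt1 (8.04) and Mt2 (7.97) on the log2 scale. Hist1h4d was listed at 0 in every NTM library of both stages and in every in vivo 8-cell library, so its value depends on the pseudocount. The largest negative changes were those of Btg4 (-5.39), Ier3ip1 (-4.68), E2f5 (-4.67), Ogfr (-4.67) and Bfsp1 (-4.59). Bfsp1 had no reads in any in vivo 4-cell library, so its value also depends on the pseudocount. Ier3ip1, a protein of the endoplasmic reticulum, had 1.49, 2.45 and 2.98 RPKM in in vivo and 40.9, 3.84 and 28.7 RPKM in NTM 4-cell libraries, and 9.997, 19.996 and 39.5 against 8.301, 1.84 and 2.75 RPKM at the 8-cell stage.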

How the results depend on the processing

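Calls numbered 2259 in all. The fit over all 20 groups gave 3660 (602 higher, 3058 lower). Median-ratio scaling gave 633 higher and 1056 lower, scaling to nuclear reads 548 higher, and no filter 255 higher and 1346 lower. Leaving out 1 library gave 988 to 2817 calls, 102 to 471 higher and 886 to 2366 lower, with the fewest without in vivo replicate 2 and the most in total without NTM replicate 3. No gene named by the stated rules changed direction. Genes named only after their values were seen were not part of this check. Of 141 calls among the genes named by rule, 40, 36 and 35 lost significance without in vivo replicate 2, 3 or 1, and 24 under median-ratio scaling.

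The stage interaction gave 1910 calls, 1204 under median-ratio scaling (788 more positive, 416 more negative) and 1117 more positive ones under nuclear scaling. Without 1 library it gave 1367 to 2482 (1233 to 2208 more positive, 126 to 274 more negative), with the fewest negative ones without in vivo 4-cell replicate 2.

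The mitochondrial share differed by 28.1 points of reads, by 41.2 points of summed RPKM and by 25.6 to 30.96 without 1 library. Genes detected differed by -3063, by -1037 at a limit of 5 RPKM and by -3494 to -2524.5 without 1 library. The median of genes rising in vivo was -0.65, 0.068 under median-ratio and -0.18 under nuclear scaling, and -0.71 to -0.52 without 1 library. That of falling genes was -0.19, -0.70 with a pseudocount of 0.1, -0.0112 and -0.0796 under median-ratio and nuclear scaling, and -0.26 to -0.15 without 1 library. That of all fibroblast-high genes, most of them under the test level, was 0, -0.0843 with the pseudocount of 0.1 and -0.0075 to 0 without 1 library. Replicate numbers did not pair the embryos (correlations of deviations 0.01, -0.04 and 0.05). With the number as a replicate block there were 1796 calls (273 higher, 1523 lower) and 1564 for the interaction. Limits are the 3 embryos a group, the lower nuclear depth and wider spread of the NTM embryos, and the many genes with their highest mean in the in vivo 4-cell group.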

Other observations

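Called genes lay on every autosome. The share of tested genes lower in NTM embryos ran from 13.7% on chromosome 6 to 22.5% on chromosome 17, and the share higher from 2.21% on chromosome 8 to 5.41% on chromosome 18.

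Further genes of the 108 higher ones whose NTM 4-cell values exceeded all 9 in vivo libraries of the 2-cell, 4-cell and 8-cell stages are given here, picked after their values were seen. Tfam, which packages mitochondrial DNA, had 8.28, 10.2 and 15.9 RPKM in the in vivo libraries and 63.9, 102 and 102 RPKM in the NTM libraries (2.87 ± 0.43, limma adjusted p = 0.00393). The mitochondrial carriers Sfxn1, a serine transporter, and Sfxn4 had differences of 3.27 ± 0.51 and 3.30 ± 0.62. Nme4, a mitochondrial nucleoside diphosphate kinase, had 15.1, 9.84 and 6.22 RPKM in the in vivo libraries and 139.7, 49.8 and 58.8 RPKM in the NTM libraries (2.80 ± 0.55, limma adjusted p = 0.0105). The kinase genes Map3k3 (3.78) and Map3k7 (3.18) and the Myc antagonist Mxi1 (3.36) were in the same set.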
